A study of Mus musculus with 7 samples.

Results

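The genes described here are 9 members of the machinery that builds and organises lymphoid tissue, chosen by name and read from the rows of the table that carry those symbols. They are the chemokines Cxcl13, Ccl19, Ccl21a and Cxcl12, their receptors Cxcr5, Ccr7 and Cxcr4, and the lymphotoxin genes Lta and Ltb. Each of the 9 symbols matched 1 of 23420 gene rows. The assay was bulk total RNA sequencing of 7 mouse hearts, which the labels call whole heart and the extraction protocol names as frozen ventricle. The 4 control animals were Ctla4+/+;Pdcd1-/- and the 3 ICI-myocarditis animals were Ctla4+/-;Pdcd1-/-, where ICI stands for immune checkpoint inhibitor. Ctla4 and Pdcd1 encode CTLA-4 and PD-1, inhibitory receptors of T cells. All 7 mice therefore carried the Pdcd1-/- genotype in their labels, all were 3 to 6 weeks old and none was treated, so the labelled contrast is between Ctla4 genotypes. The labels name no strain and no cell-restricted driver for either allele.

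In lymph nodes, CXCL13 draws CXCR5-bearing B cells and follicular helper T cells into follicles, while CCL19 and CCL21 draw CCR7-bearing T cells and mature dendritic cells into the T cell zone. Lymphotoxin, made mainly by lymphocytes from an alpha and a beta chain, signals through the lymphotoxin beta receptor on stromal cells and sustains their output of these chemokines. CXCL12 is made by stromal and vascular cells of many organs, the heart included, and its receptor CXCR4 is carried by most leukocytes.

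Values are normalized counts, that is, reads per gene divided by the size factor of the library. Libraries held 20931730 to 39037176 reads assigned to genes. The cardiomyocyte gene Myh6 was abundant in every library, at 402804 normalized counts or more, as the tissue label implies. Among the controls, control 2 stood apart in T cell transcripts. The summed level of 16 T cell genes was 2904 normalized counts in control 2 against 465 to 566 in the other controls and 11026 to 16919 in the ICI-myocarditis libraries. Member results are therefore also given without that library. Transcripts of both genes named in the genotypes were counted. Pdcd1, labelled -/- in all 7 mice, had 9.07, 244, 3.35 and 2.50 normalized counts across controls 1 to 4, against 1481, 1096 and 1340 across ICI-myocarditis 1 to 3 (log2 fold change 6.54, limma adjusted p = 0.00959, and 0.0530 with edgeR). Ctla4 had 29.2, 113, 69.2 and 41.3 across the controls, against 282, 251 and 373 in the affected hearts (log2 fold change 2.40, limma adjusted p = 0.00849). All affected hearts were above all controls for both genes, and control 2 was the highest control. The labels do not say which part of Pdcd1 is altered, and a count per gene does not show where its reads lie, so these levels neither check nor overturn the labelled genotypes. In bulk tissue, more cells of a type and more RNA per cell cannot be told apart.

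Of the 9 members, 7 could be tested, for which a gene had to reach 10 normalized counts in 3 or more libraries. The test was limma on log2(normalized count + 1), with a threshold of 0.05 on the p-value adjusted over all genes tested. Ltb, Cxcl13, Lta and Ccr7 were higher in ICI-myocarditis, Cxcl12 was lower, and Cxcr5 and Cxcr4 were not called. Over all 15258 genes tested, 15.7% were called, 11.7% as higher and 4.0% as lower. Cxcl13 and Lta reached the filter through the ICI-myocarditis libraries alone, so they could enter the test only by being high there, and the 5 calls among 7 tested members are not a measure of how often members of such a set change. Without control 2, 6 members were called, against 21.9% of all genes. edgeR's quasi-likelihood test and DESeq2 called the same number of members as limma, 5, against 13.6% and 22.6% of all genes.

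**Figure D1:**
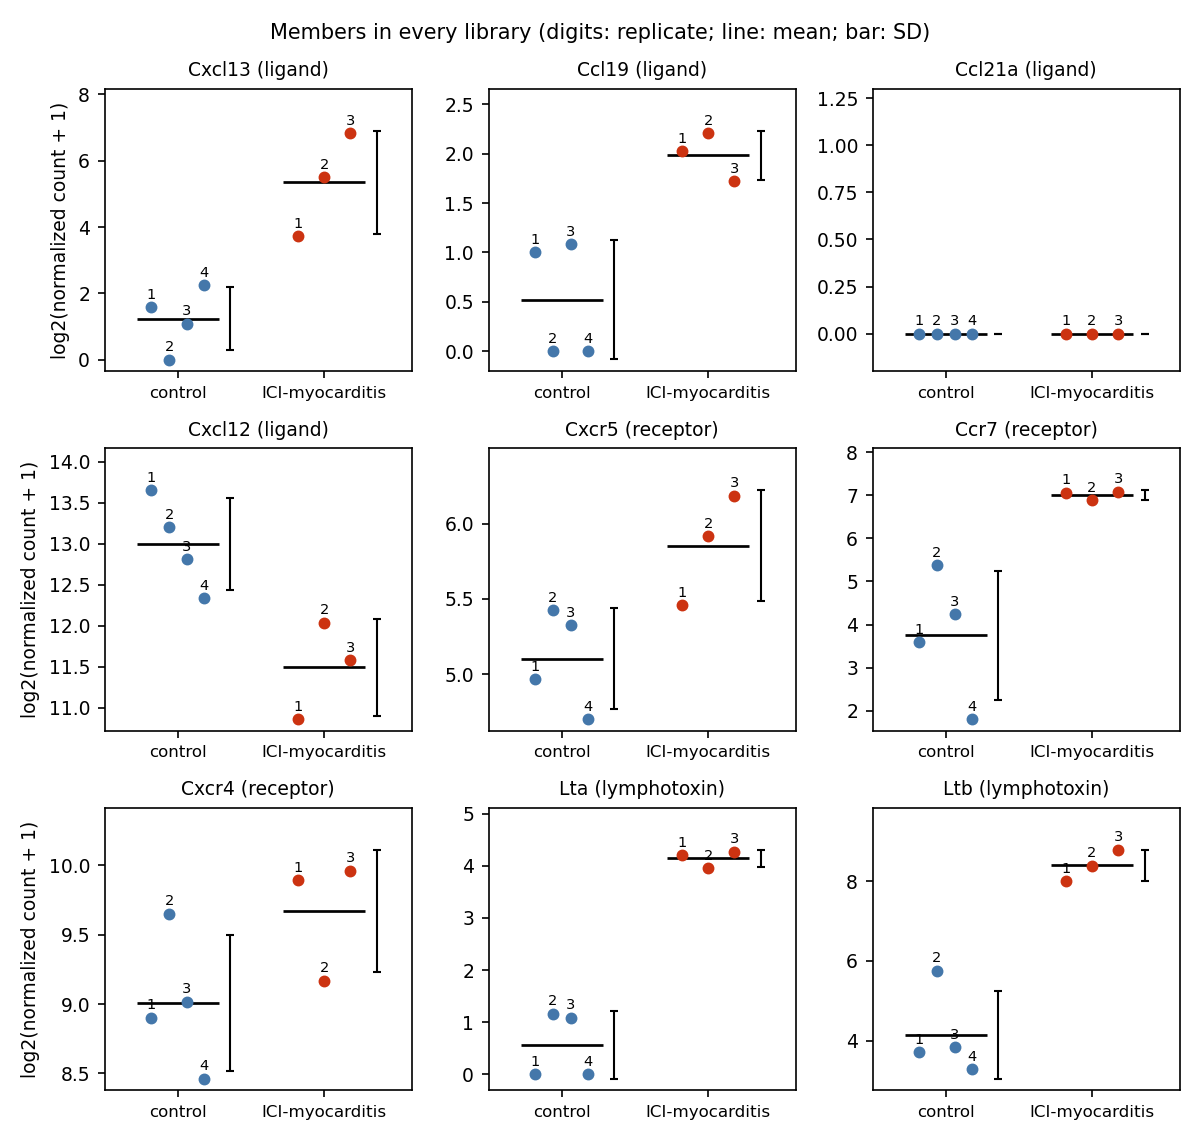
Level of each of the 9 members in every library, as log2(normalized count + 1), with a digit for the replicate, a line for the group mean and a bar for the SD (n = 4 controls and 3 ICI-myocarditis libraries). The ICI-myocarditis points lie above all control points for Cxcl13, Ccl19, Ccr7, Cxcr5, Lta and Ltb and below them for Cxcl12, the groups overlap for Cxcr4, and Ccl21a is at 0 throughout.

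Cxcl13, the B cell follicle chemokine, was close to undetected in control hearts and clearly present in the affected ones. Cxcl13 lies on chromosome 5 (GRCm38, 95956951 to 95961068, plus strand). Its normalized counts were 2.02, 0, 1.12 and 3.75 across controls 1 to 4, against 12.3, 44.2 and 112 across ICI-myocarditis 1 to 3. The groups did not overlap, but the affected hearts differed widely among themselves, and ICI-myocarditis 3 was highest. Cxcl13 rose, its log2 fold change being 4.12 (SE 0.812, limma adjusted p = 0.0104). Only 6 reads of Cxcl13 were counted in all controls together, against 220 in the ICI-myocarditis libraries, a ratio of 39.5 per read sequenced (95% exact interval 17.9 to 109, counting error only). The call was lost without ICI-myocarditis 3, where the log2 fold change was 3.38 (limma adjusted p = 0.0546), and it held without control 2, at 3.71 (limma adjusted p = 0.00882).

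The chemokines of the T cell zone were listed at or near 0. Ccl19 (chromosome 4, 42754525 to 42756577, minus strand) was covered by 1, 0, 1 and 0 reads in the controls and by 3, 5 and 3 reads in the ICI-myocarditis libraries. Every affected library was above every control, with means of 0.531 ± 0.615 and 3.00 ± 0.669 normalized counts for control and affected hearts (SD, n = 4 and 3), but 11 reads against 2 give a ratio per read of 5.93 with a 95% exact interval from 1.29 to 55.0. Ccl19 fell below the filter and was not tested; with no filter on low values its log2 fold change was 1.46 (SE 0.447, limma adjusted p = 0.0627). The authors' deposited table gave Ccl19 a log2 fold change of 2.40 with no adjusted p.

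Ccl21a (chromosome 4, 42772860 to 42773993, minus strand) was listed at 0 in all 7 libraries. The named copies Ccl21b and Ccl21c were listed at 0 in all 7 as well. In GENCODE M21, 33.7% of the 150-base windows of the Ccl21a transcript, the length of 1 read, occur unchanged in a transcript of another gene. For Ccl19 that share was 32.4%, and for the other 7 members it was 0%. How the authors counted reads that fit several copies is not given in the sources used here, so a listed 0 for Ccl21a is not a measure of its absence. Ccl19 and Ccl21a lie 16282 bases apart.

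Cxcl12, the stromal ligand of CXCR4, was the most abundant ligand and the member that fell. Cxcl12 lies on chromosome 6 (117168535 to 117181367, plus strand). Its normalized counts were 12870, 9431, 7175 and 5161 across controls 1 to 4, against 1858, 4200 and 3054 across ICI-myocarditis 1 to 3. The lowest control lay above the highest affected heart, and both groups spread over more than a 2-fold range. The log2 fold change of Cxcl12 was -1.51 (SE 0.370, limma adjusted p = 0.0251), from 8659 ± 3305 to 3037 ± 1171 normalized counts (SD, n = 4 and 3). This call was the least stable of the 5. It was lost with scaling by library size alone (log2 fold change -1.35, limma adjusted p = 0.0613), a scaling that moves the median of all genes from -0.02 to 0.13. It was also lost without control 1 (limma adjusted p = 0.0654), control 3 (0.0603), ICI-myocarditis 1 (0.0817) or ICI-myocarditis 3 (0.0744), and it held without control 2 (-1.44, limma adjusted p = 0.0301).

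Genes of vessels moved in the same direction as Cxcl12. Of 12 endothelial genes 5 fell and 0 rose, with a median of -1.02 on the log2 scale, and DESeq2 called 9 of them. Of 9 mural cell genes, which mark pericytes and smooth muscle, 5 fell and 0 rose, with a median of -0.95. The median over all genes tested was -0.02. That of 10 cardiomyocyte genes, of which limma called 0, was -0.84, so a lower median was not particular to vessel genes. Erg, an endothelial transcription factor, fell by 1.24 (limma adjusted p = 0.00657), Emcn, which encodes endomucin, fell by 1.16 (0.00951), Rgs5, a pericyte gene, fell by 1.48 (0.00649) and Vtn, which encodes vitronectin, fell by 1.44 (0.0120). With library size scaling Emcn was no longer called (limma adjusted p = 0.0607). The part of these genes in the change of Cxcl12 was not tested. Within each library, Cxcl12 stood 0.79 ± 0.31 above the mean log2 level of the endothelial list in controls (SD, n = 4) and 0.23 ± 0.43 above it in ICI-myocarditis (SD, n = 3), and the groups overlapped (difference -0.56, exact two-sided permutation p = 0.143, adjusted over 12 such ratios 0.214). Against the fibroblast list the difference was -2.11, with all 3 affected hearts below all controls (exact permutation p = 0.0286, the smallest that 35 splits allow, adjusted 0.0686). That list itself had a median log2 fold change of 0.47, with 3 of 12 genes called, all higher, and 6 called by DESeq2. Its most significant genes were the collagen genes Col1a2 (1.63) and Col3a1 (1.42), called in 14 and 15 of 18 alternatives (limma adjusted p = 0.0158 and 0.0161).

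The scavenger of CXCL12, listed under its older symbol Cxcr7 and now called Ackr3, was not called. Its means were 2232 ± 406 and 1857 ± 307 normalized counts (controls, then ICI-myocarditis, SD, n = 4 and 3), a log2 fold change of -0.26 (95% interval -0.74 to 0.22, limma adjusted p = 0.464). Ccrl1, now Ackr4, which clears CCL19 and CCL21, had a log2 fold change of 0.71 (95% interval -0.08 to 1.50, limma adjusted p = 0.213). The groups overlapped for both. Of the 8 tested genes in the list of chemokine partners, 3 rose and 0 fell, with a median of 0.68. Among them were Ch25h, which encodes the first enzyme towards an oxysterol that guides B cells and dendritic cells (4.95, limma adjusted p = 0.00488), and Ebi3, a cytokine subunit gene (2.52, limma adjusted p = 0.00457).

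Receptor transcripts differed in how far they moved. Ccr7, which guides naive T cells and mature dendritic cells, rose. Ccr7 lies on chromosome 11 (99144196 to 99155077, minus strand). Its normalized counts were 11.1, 40.7, 17.9 and 2.50 across controls 1 to 4, against 132, 117 and 134 across ICI-myocarditis 1 to 3. The affected hearts were close together and all above the controls, of which control 2 was highest. The log2 fold change of Ccr7 was 3.25 (SE 0.719, limma adjusted p = 0.0165), and without control 2 it was 3.79 (limma adjusted p = 0.00178). The call was lost without ICI-myocarditis 3 (limma adjusted p = 0.0626) and without control 1 (0.0505).

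Cell types that carry CCR7 were read from lists. Of 7 tested genes of naive and memory T cells, 3 rose and 0 fell (median 1.69; without control 2, 5 were called), among them Tcf7, a transcription factor of such cells (2.14, limma adjusted p = 0.00716), and Il7r, the interleukin-7 receptor gene (3.83, limma adjusted p = 0.00834). Of 11 tested genes of mature dendritic cells, 6 rose and 0 fell (median 1.03), a list that includes Ccr7 itself and Ccl17, which reached the filter through the affected hearts alone. Ccl22, a chemokine gene of mature dendritic cells, rose by 4.95 (limma adjusted p = 0.00631) and Il12b by 3.95 (limma adjusted p = 0.0107). Lamp3, a defining gene of mature dendritic cells, lay at 3.06 normalized counts or less in every library and was not tested.

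Cxcr5, the CXCL13 receptor of B cells and follicular helper T cells, was present at a low level in every heart. Cxcr5 lies on chromosome 9 (44511787 to 44561877, minus strand). Its normalized counts were 30.2, 41.9, 39.1 and 25.02 across controls 1 to 4, against 43.0, 59.4 and 71.8 across ICI-myocarditis 1 to 3. All affected hearts lay above all controls, but the lowest of them and control 2 differed by little. Groups were apart in this direction for 17.3% of all genes tested, and in either direction for 28.6%. The log2 fold change of Cxcr5 was 0.75 (95% interval -0.04 to 1.54, limma adjusted p = 0.187), and it was not called under any of 17 alternatives. Cxcr5 overlaps Bcl9l on the opposite strand, with 110 shared exon bases, and the use of strand in counting is not given in the sources used here, so reads over those bases could belong to either gene.

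Cxcr4 (chromosome 1, 128588199 to 128592293, minus strand) was by far the most abundant receptor. Its normalized counts were 477, 803, 517 and 352 across controls 1 to 4, against 948, 574 and 995 across ICI-myocarditis 1 to 3. ICI-myocarditis 2 lay within the range of the controls and control 2 lay above it. The log2 fold change of Cxcr4 was 0.67 (95% interval -0.03 to 1.36, limma adjusted p = 0.184). Leaving out control 2 gave 0.88 and passed the threshold (limma adjusted p = 0.0464), the single alternative of 18 in which Cxcr4 was called.

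Of the members, only the lymphotoxin genes were called under every alternative that gave them a value. Lta encodes the secreted alpha chain and Ltb the membrane-anchored beta chain of the heterotrimer that binds the lymphotoxin beta receptor. Both lie on chromosome 17, Ltb from 35194439 to 35196320 on the plus strand and Lta from 35203165 to 35205351 on the minus strand, with Tnf between them. The gap from Lta to Tnf is 1157 bases and from Tnf to Ltb 3060 bases. Ltb had 12.1, 53.0, 13.4 and 8.76 normalized counts across controls 1 to 4, against 256, 334 and 440 across ICI-myocarditis 1 to 3. Every affected heart exceeded every control by a wide margin, with control 2 the highest control. Ltb rose, its log2 fold change being 4.24 (SE 0.564, limma adjusted p = 0.0036) and 4.78 without control 2.

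Lta was nearly absent from controls, at 0, 1.23, 1.12 and 0 normalized counts, and reached 17.4, 14.5 and 18.3 in ICI-myocarditis 1 to 3. The affected hearts were again far from the controls and close to one another. Lta rose, its log2 fold change being 3.58 (SE 0.575, limma adjusted p = 0.00504). All controls together held 2 reads of Lta against 61 in the affected libraries, a ratio per read of 32.9 (95% exact interval 8.72 to 278). The size of this change rests on the pseudocount, falling to 1.96 with 5 in place of 1. Lta passed under all 17 alternatives that gave it a value and Ltb under all 18 (largest limma adjusted p 0.0343 and 0.0169). A stricter filter on low values left Lta out. Lta reached the filter through the affected hearts alone, so under that filter it could be tested only by being high there. With no filter on low values its limma adjusted p was 0.00295.

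Because Lta and Ltb are neighbours that were both called higher, their promoters are shown. RefSeq windows on GRCm38.p6, from 250 bases before to 50 after the start site, were found for 7 of the 9 members, not for Cxcr5 and Ccr7. They were searched on both strands for the kappaB letters GGGNNTTTCC, for TTCNNNGAA, the letters bound by STAT dimers, and for TTTCNNTTTC, an interferon response element. Capitals mark every match. The Ltb window is chr17:35194257-35194556 on the plus strand and the Lta window chr17:35205302-35205601 on the minus strand.
Ltb: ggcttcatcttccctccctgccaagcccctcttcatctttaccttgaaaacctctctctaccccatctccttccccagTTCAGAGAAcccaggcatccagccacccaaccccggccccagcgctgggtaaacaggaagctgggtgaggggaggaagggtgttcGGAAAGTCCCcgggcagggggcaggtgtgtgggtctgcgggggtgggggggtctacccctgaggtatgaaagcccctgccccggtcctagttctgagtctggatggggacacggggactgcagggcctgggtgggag
Lta: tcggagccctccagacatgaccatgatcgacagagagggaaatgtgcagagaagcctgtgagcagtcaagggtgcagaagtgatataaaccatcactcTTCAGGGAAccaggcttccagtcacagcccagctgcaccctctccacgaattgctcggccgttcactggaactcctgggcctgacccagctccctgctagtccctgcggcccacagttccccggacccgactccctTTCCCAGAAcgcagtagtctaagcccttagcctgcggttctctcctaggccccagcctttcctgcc

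The Ltb window holds GGGNNTTTCC on the minus strand, printed above as GGAAAGTCCC, and 1 match to TTCNNNGAA. The Lta window holds 2 matches to TTCNNNGAA and none to the kappaB letters. Of 32851 RefSeq windows of that length, 1.63% hold GGGNNTTTCC, 8.30% hold TTCNNNGAA and 3.44% hold TTTCNNTTTC. Of the other 5 windows, that of Ccl19 holds TTTCNNTTTC, and those of Cxcl13, Ccl21a, Cxcl12 and Cxcr4 hold none of these letters. A match describes letters in a window and is not evidence of binding.

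Lymphotoxin signalling was followed further through a list of 13 genes, all tested, of which 5 rose and 0 fell (median 0.86). Ltbr, the receptor of the lymphotoxin heterotrimer, had 1206, 912, 1016 and 1171 normalized counts across controls 1 to 4, against 1266, 1291 and 1379 across ICI-myocarditis 1 to 3. The groups were narrowly apart, and the log2 fold change of 0.29 was not called (95% interval -0.10 to 0.69, limma adjusted p = 0.302). Tnfsf14, which encodes LIGHT, the other ligand of that receptor, rose from 7.01 ± 5.48 to 43.0 ± 5.80 normalized counts (SD, n = 4 and 3, log2 fold change 2.69, limma adjusted p = 0.0123), a call missed without ICI-myocarditis 3 (0.0618). Tnfrsf14, a second receptor of LIGHT, rose by 2.12 (limma adjusted p = 0.0277), called in 12 of 18 alternatives. Tnf, the gene between Lta and Ltb, rose by 3.94 (limma adjusted p = 0.0152). Without ICI-myocarditis 3 its log2 fold change was 3.35 and missed the threshold (limma adjusted p = 0.0682). Tnfrsf1b, a receptor of TNF and of the secreted lymphotoxin alpha trimer, rose by 2.41 (limma adjusted p = 0.00392).

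Of the non-canonical NF-kappaB genes downstream of Ltbr, Map3k14, Relb and Nfkb2 were not called by limma. The kinase gene Map3k14, which encodes NIK, had a log2 fold change of 1.05 (limma adjusted p = 0.0598, and 0.00402 without control 2). It was called by DESeq2 (adjusted p = 0.0430) and by limma-voom with quality weights (adjusted p = 0.00435). Relb and Nfkb2 had log2 fold changes of 0.65 and 0.48 (limma adjusted p = 0.128 and 0.234), and ICI-myocarditis 1 lay within the control range for both. limma-voom called Relb (adjusted p = 0.0344). Birc3, an NF-kappaB target, rose by 1.17 (limma adjusted p = 0.0293), called in 11 of 18 alternatives.

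**Figure D2:**
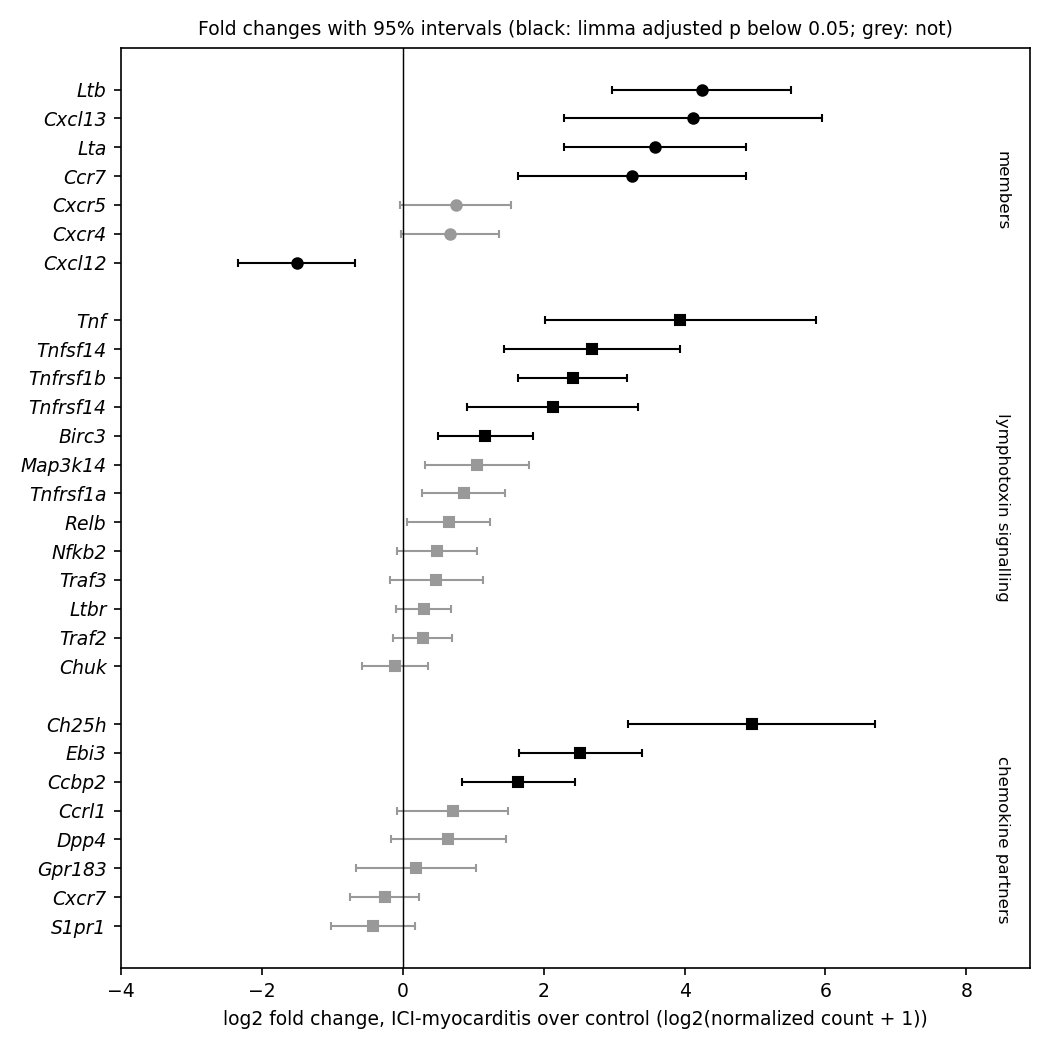
Log2 fold changes of ICI-myocarditis over control with 95% intervals for the 7 tested members (circles) and for the tested genes of the lymphotoxin signalling and chemokine partner lists (squares), black where the limma adjusted p was below 0.05. Ltb, Cxcl13, Lta and Ccr7 lie between 3.25 and 4.24 and Cxcl12 at -1.51, while Ltbr lies at 0.29.

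Members carried by lymphocytes were set beside T cell content. Each of the 15 tested T cell genes rose (median 4.49 on the log2 scale), for example Cd3g (5.20, limma adjusted p = 0.00405) and Cd4 (2.89, limma adjusted p = 0.00316). The log2 level of Ltb minus the mean log2 level of the T cell list was -0.42, -1.28, -0.73 and -0.52 across controls 1 to 4, against -0.97, -0.51 and -0.67 across ICI-myocarditis 1 to 3. The groups overlapped throughout (difference 0.02, exact permutation p = 0.886, adjusted 0.886). The same measure for Lta differed by -0.64 (exact permutation p = 0.343, adjusted 0.374) and for Ccr7 by -0.97 (exact permutation p = 0.171, adjusted 0.229), both with overlap.

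Cxcr5 and Cxcr4 stood lower relative to T cell genes in the affected hearts, though neither gene was itself lower there. The mean of the T cell list rose by 4.22 log2 units, against log2 fold changes of 0.75 for Cxcr5 and 0.67 for Cxcr4. These differences therefore mostly repeat the rise of the list, and they do not give a level per T cell. Cxcr5 minus the T cell mean was 0.84, -1.61, 0.75 and 0.89 across controls 1 to 4, against -3.52, -2.98 and -3.27 across ICI-myocarditis 1 to 3. All affected hearts were below all controls, with control 2 between the other controls and the affected hearts (difference -3.47, exact permutation p = 0.0571, adjusted 0.114). Cxcr4 minus the T cell mean was 4.12 ± 1.01 in controls and 0.56 ± 0.32 in ICI-myocarditis (SD, n = 4 and 3), with no overlap (difference -3.56, exact permutation p = 0.0286, adjusted 0.0686). No ratio of the 12 passed the threshold after adjustment, and 5 of them reached the smallest p the design allows. Ltb minus Lta differed by 0.66 (exact permutation p = 0.257, adjusted 0.309), with overlap.

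**Figure D3:**
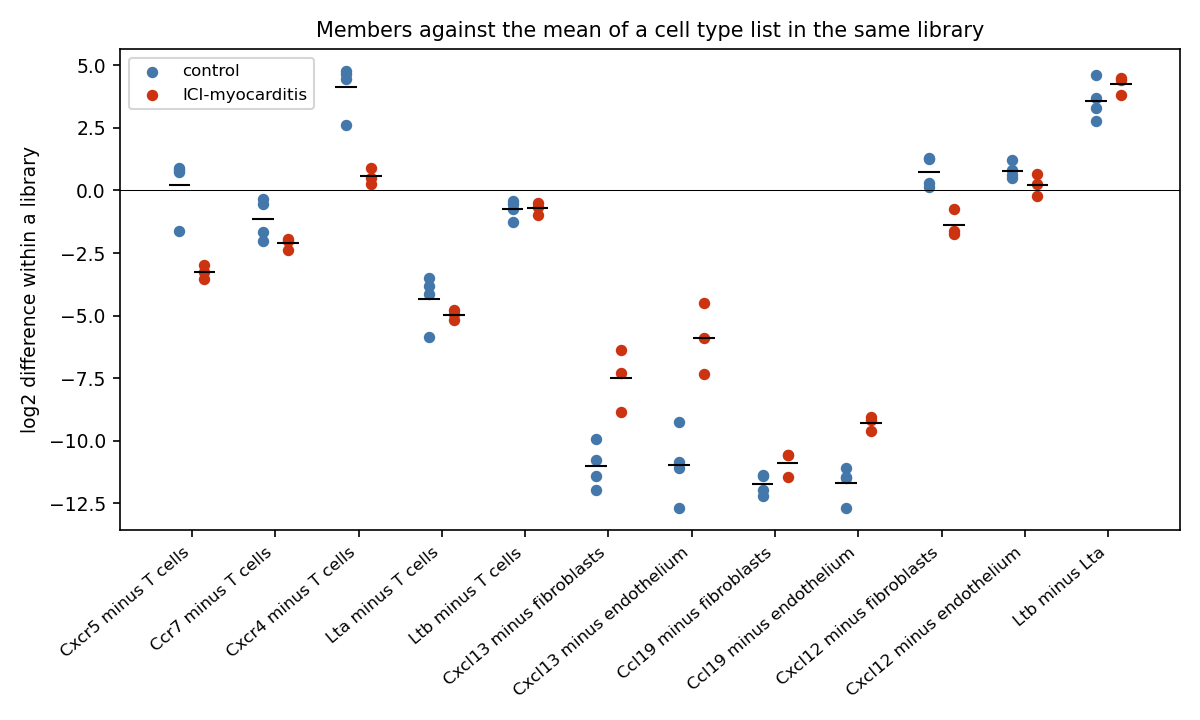
For each library, the log2 level of a member minus the mean log2 level of a cell type list in that library (or Ltb minus Lta), with controls in blue, ICI-myocarditis in red and a line at each group mean. The group means of Ltb against T cells are -0.74 and -0.72, those of Cxcr4 against T cells 4.12 and 0.56, and those of Cxcl13 against fibroblasts -11.03 and -7.51 (control, then ICI-myocarditis).

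Genes of the cells that CXCL13 draws were mixed. Of 11 tested B cell genes, 4 rose and 1 fell (median 0.34). Ms4a1, which encodes CD20, had means of 13.7 ± 11.0 and 7.96 ± 2.55 normalized counts (control, then affected hearts, SD, n = 4 and 3, log2 fold change -0.38, limma adjusted p = 0.761). Its sign changed between alternatives. Cd79a, a B cell receptor chain gene, had a log2 fold change of 0.34 (limma adjusted p = 0.644). The B cell list members with the lowest p-values were Cd37 (2.78, limma adjusted p = 0.00716), a tetraspanin gene that other leukocytes also express, and Fcrla (2.55, limma adjusted p = 0.00866), which missed the threshold without ICI-myocarditis 3 (0.0532). Fcrla reached the filter through the ICI-myocarditis libraries alone, so it could be tested only by being high there. Cd22 rose by 3.83 and Cd79b by 1.56 (limma adjusted p = 0.0108 and 0.0310), while Bank1, a B cell adaptor gene, fell by 1.84 (limma adjusted p = 0.00977). Cd22 missed without ICI-myocarditis 3 (limma adjusted p = 0.0510) and Cd79b passed in 12 of 18 alternatives.

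Of 8 tested genes of follicular helper T cells, 6 rose and 0 fell (median 3.50), and edgeR called 3. The 2 not called by limma were Bcl6 (0.23, limma adjusted p = 0.590), with overlap of the groups, and Maf (0.53, limma adjusted p = 0.111), without overlap. The list holds Pdcd1, the gene labelled -/- in every mouse; without it, 5 of 7 rose (median 3.11). Il21, also among those that rose (3.94, limma adjusted p = 0.0103), reached the filter through the affected hearts alone and missed the threshold without ICI-myocarditis 3 (0.0602). Batf rose by 3.11 (limma adjusted p = 0.00775) and Icos by 4.66 (limma adjusted p = 0.00918), both also expressed by other activated T cells. Of 6 tested plasma cell genes 1 rose, the J chain gene, listed under its older symbol Igj, from 11.8 ± 5.69 to 473 ± 278 normalized counts (SD, n = 4 and 3, log2 fold change 5.15, limma adjusted p = 0.00251). Sdc1, a plasma cell surface gene with other sources in the heart, had a log2 fold change of 0.59 (limma adjusted p = 0.126).

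Genes of lymphoid stroma and venules were read from a list of 16, of which 14 could be tested, 8 rose and 1 fell (median 1.72). The list also holds cytokine, receptor and adhesion genes, and which cells made these transcripts was not tested. The 5 not called were Chst2 (0.98), Pdpn (0.79), Cdh11 (0.35), Chst4 (-0.17) and Cr2, with limma adjusted p from 0.0650 (Chst2) to 0.890 (Chst4). The high endothelial venule genes Glycam1 and Madcam1 were at 0 in all libraries and at 2.90 normalized counts or less, respectively. Cr2, a gene of follicular dendritic cells and B cells, had means of 63.5 ± 60.4 and 30.8 ± 9.83 normalized counts, with overlap (SD, n = 4 and 3, log2 fold change -0.45, limma adjusted p = 0.760). The lowest p-values in the list were those of Tnfsf13b, which encodes the B cell survival factor BAFF (3.48, limma adjusted p = 0.0034), and Tnfsf11, which encodes RANKL (3.87, limma adjusted p = 0.0045). Tnfsf11 and Fut7, both among the 8, reached the filter through the ICI-myocarditis libraries alone. Vcam1, an adhesion gene of activated vessels and stroma, rose by 2.07 (limma adjusted p = 0.00896), and Enpp2, the autotaxin gene, fell by 1.10 (limma adjusted p = 0.0361), called in 10 of 18 alternatives.

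Markers of attached lymphoid organs were low. Of 12 genes of thymus or lymph node tissue, 5 could be tested and limma called 0, with 0 at an unadjusted p below 0.05 and 0 by edgeR or DESeq2. Ccr9 had a log2 fold change of 0.39 (limma adjusted p = 0.740) and Cd1d1 of -0.33 (limma adjusted p = 0.602). Foxn1 was at 0 in every library and Rag1 in all but control 3, at 6.70 normalized counts. The summed level of the list was 142 to 347 normalized counts in controls and 187 to 214 in ICI-myocarditis, so the groups overlapped.

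The remaining lists give the cellular background. Of 14 macrophage and monocyte genes 13 rose (median 2.46), for example C1qb (2.74) and Emr1, now Adgre1 (2.28, both limma adjusted p = 0.00251). Of 6 lymphatic endothelial genes, cells that make CCL21 in other organs, 1 fell and 0 rose (median -0.28). The called gene was Prox1, also expressed by cardiomyocytes (-1.05, limma adjusted p = 0.0461, in 9 of 18 alternatives), and Pdpn had a log2 fold change of 0.79 (limma adjusted p = 0.133). Of 10 cardiomyocyte genes limma called 0 (median -0.84), with 2 at an unadjusted p below 0.05, 0 called by edgeR and 3 by DESeq2. Among them were Ryr2 at -1.27 (limma adjusted p = 0.0593, past the threshold in 6 of 18 alternatives) and Tnni3 at -1.16 (limma adjusted p = 0.112, past it with DESeq2 alone, 0.0360). Cxcl13 stood 3.52 higher in ICI-myocarditis relative to the fibroblast list and 5.07 higher relative to the endothelial list, both without overlap (exact permutation p = 0.0286, adjusted 0.0686). The corresponding differences for Ccl19 were 0.86 and 2.41 (exact permutation p = 0.143 and 0.0286, adjusted 0.214 and 0.0686), with overlap in the first, at the few reads given above. The mean of the fibroblast list itself rose by 0.60 and that of the endothelial list fell by 0.95, and these shifts enter the differences. Cxcl13 was near 0 in every control, so its separation from the lists adds little to its fold change.

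**Figure D4:**
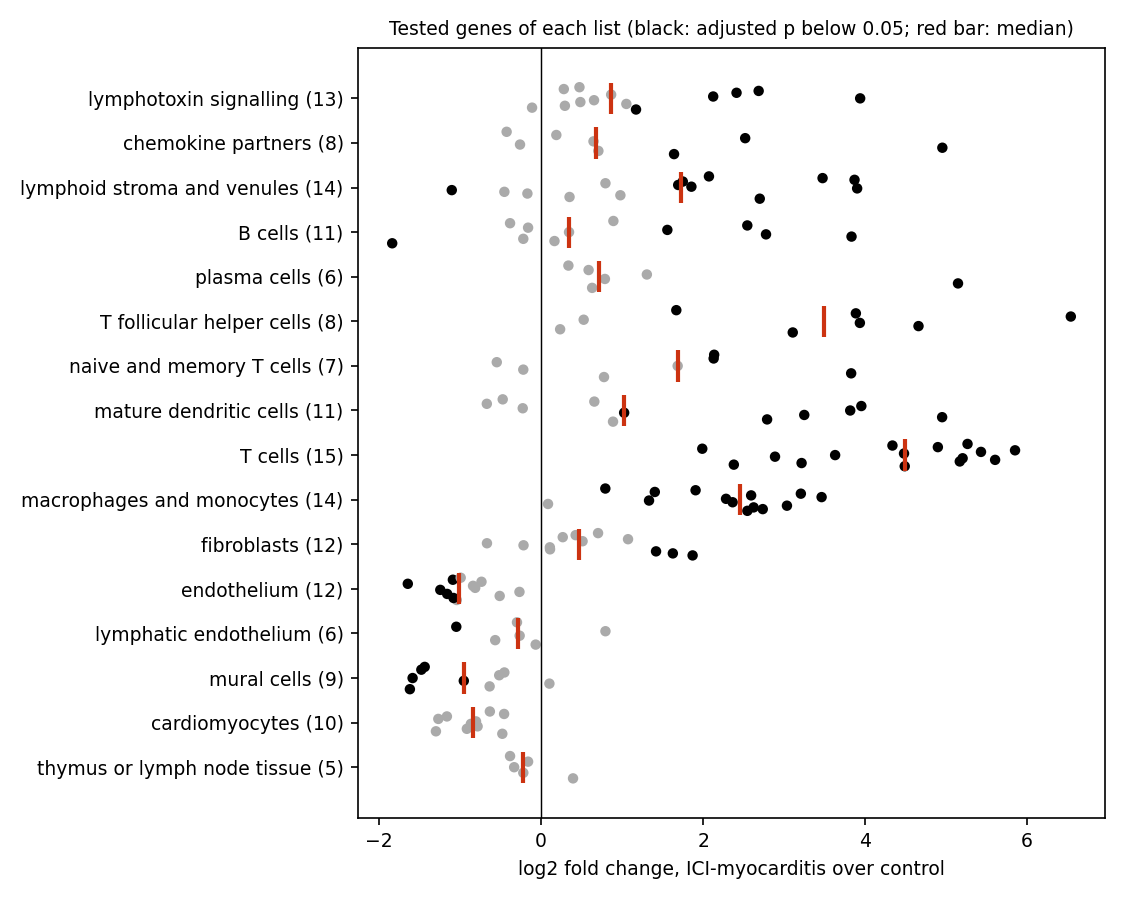
Log2 fold changes of the tested genes of 16 lists (number tested in brackets), black where the limma adjusted p was below 0.05, with a red bar at the list median. T cell genes centre on 4.49 and B cell genes on 0.34, while endothelial and mural cell genes centre on -1.02 and -0.95.

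Levels were compared between members per kilobase of exon, with all annotated exons of a gene merged. Which annotated transcripts were expressed is not known, so the order depends on these lengths. In controls the order of the mean level was Cxcl12 (1059 ± 404 normalized counts per kilobase, SD, n = 4), Cxcr4 (297 ± 106), Ltb (14.4 ± 13.8), Cxcr5 (10.2 ± 2.35), Ccr7 (9.12 ± 8.27), Cxcl13 (1.50 ± 1.38), Ccl19 (0.613 ± 0.709) and Lta (0.425 ± 0.492). Cxcl12, Cxcr4 and Ltb were apart by more than their SDs, and from Ltb down each gene lay within the SDs of the next. In ICI-myocarditis the order was Cxcr4 (464 ± 128, SD, n = 3), Cxcl12 (372 ± 143), Ltb (226 ± 61.0), Ccr7 (64.6 ± 4.87), Cxcl13 (48.9 ± 44.4), Cxcr5 (17.4 ± 4.34), Lta (12.1 ± 1.45) and Ccl19 (3.45 ± 0.771). Here the SDs of neighbours were apart between Ltb and Ccr7 and between Lta and Ccl19, and overlapped between all other neighbours. On this scale Cxcl12 stood above its receptor gene in control hearts, and the means of the pair were within their spreads in the affected ones. The merged exons are 8176 bases for Cxcl12 and 1808 for Cxcr4. Not divided by length, the means in the affected hearts were 3037 and 839 normalized counts.

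For each tested member, the genes with the most similar profile over the 7 libraries were found by the root mean square difference of log2 levels, each centred on its own mean. The closest to Ltb were Cd72 and Spn (0.15 and 0.17 log2 units), both leukocyte surface genes, and the closest to Lta were the complement genes C2 and C4b (0.25 and 0.27). The closest to Cxcl12 were Tspan18 and Iqcd (0.10 and 0.17), to Ccr7 Aim1l and Slain1 (0.24 and 0.29), to Cxcr5 Mdfic and Slc25a24 (0.09 and 0.10) and to Cxcr4 Snord15a and Haus3 (0.16 and 0.16). Cxcl13 had no near neighbour, with 5730559C18Rik and Thbs4 closest at 0.74 and 0.75. All 7 libraries share the contrast between the groups, so these distances describe shape and size over few points.

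**Figure D5:**
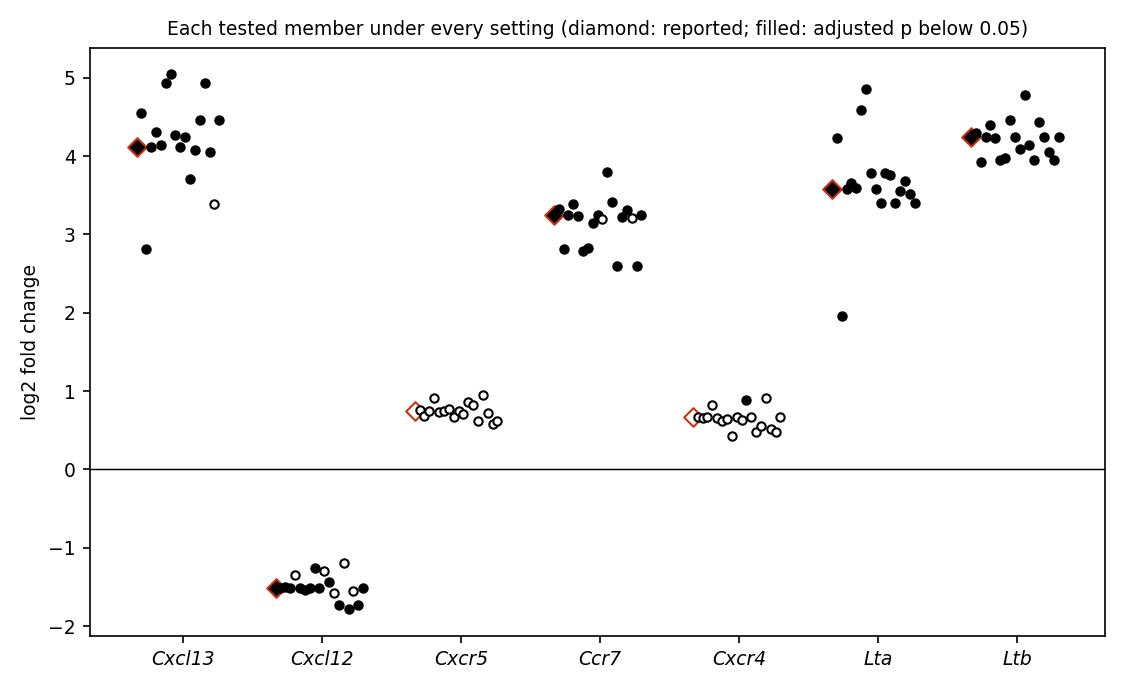
Log2 fold change of each tested member under the reported fit (diamond) and every alternative run (circles), filled where the adjusted p was below 0.05. Ltb and Lta are filled throughout, Cxcr5 is open throughout, Cxcr4 is filled once, and Cxcl12 has 5 open circles between -1.57 and -1.19.

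In the authors' deposited table the same 5 members had an adjusted p below 0.05, as did 20.2% of the genes given one there. Its log2 fold changes were 5.04 for Cxcl13, 4.86 for Lta, 3.98 for Ltb, 2.83 for Ccr7 and -1.51 for Cxcl12. In the authors' deposited table the adjusted p was 0.131 for Cxcr5 and 0.191 for Cxcr4.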

How the data were processed

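Bulk RNA-seq of 7 mouse hearts was used, 4 control and 3 ICI-myocarditis libraries grouped by sample title. The deposited per-library values are a signal; their steps show gene reads divided by 1 size factor per library. Per the file headers, the authors' own comparison is in the same table: log2 fold changes, a score (the test statistic) and p-values. STAR 2.7.3 and GRCm38 (mm10) are named in the submitters' processing notes; the kit was stranded per the labels' protocols, and the counting program and its strand setting are not given in the sources used here. Whole reads were recovered in all 7 libraries (100% of values within 0.1 of whole multiples); for control 1 the step was 1.01, too close to 1 for this to be a strong check.

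limma 3.58.1 (R 4.3.3) with trend and robust variance was fitted to log2(normalized count + 1) of genes that reached 10 normalized counts in 3 or more libraries, with Benjamini-Hochberg adjustment over all genes. edgeR 4.0.16 and DESeq2 1.42.0 on recovered reads were alternatives. Fold changes on this scale understate changes of genes near 0 in controls. Those of Cxcl13 and Lta were 4.12 and 3.58, against 5.04 and 4.86 with DESeq2. The reverse held for Ccr7 and Ltb, at 3.25 and 4.24 against 2.82 and 3.98 with DESeq2. Scripts were tested on simulated data. Replicates are separate samples in the labels; nothing else there says how they were bred, so p-values measure the spread between these samples. Intervals on reads cover counting error only. The 9 members and all gene lists were chosen with earlier results of these data known. Named genes are the members, their partner receptors and ligands, the 2 genes of lowest p in each list and the 2 nearest profiles of each member. Pdcd1, Ctla4, Il21, Bcl6, Maf, Ccl17, Tnf, Birc3, Relb, Nfkb2, Map3k14, Lamp3, Foxn1, Rag1, Glycam1, Madcam1, Chst2, Chst4, Cdh11, Cr2, Vcam1, Enpp2, Myh6, Ms4a1, Cd79a, Cd79b, Cd22, Bank1 and the genes of the closing section were added after values were seen. Of 6 listed symbols not in the table, all 6 were found under an older symbol through RefSeq. The result for a further gene of the B cell list is not reported here. Ratios of Ccl21a were left out because it is listed at 0. Coordinates and exon lengths are from GENCODE M21 (GRCm38).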

Additional observations from a re-analysis of the deposited data

Results flagged for a closer look

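The 4 controls were screened for a single extreme value in 35 log2 results (members, ratios and list means) with Dixon's gap statistic, the distance of the extreme value from its neighbour over the whole range, at the 95% critical value. Chance flags about 1 in 20, and the results are not independent. Control 2 was extreme in 3 of them. Dixon's statistic was 0.941 for Cxcr5 minus the T cell mean and 0.845 for Cxcr4 minus the T cell mean, in both on the low side. It was 0.905 for the mean of the naive and memory T cell list, on the high side. Control 2 also had the highest Ltb, Ccr7, Cxcr4 and Cxcr5 among controls, and the part of its T cell transcripts in these values was not tested.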

How the results depend on the processing

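Ltb and Lta kept their call and direction under every alternative that gave them a value, and Cxcr5 stayed uncalled under every one that did. Over all genes, limma called 2397, against 4003 with limma-voom and quality weights and 1080 (without ICI-myocarditis 3) to 3345 (without control 2) when 1 library was left out. It called 1509 without control 1, 1300 without control 3 and 1546 without ICI-myocarditis 2. Of the members, 5 were called, against 3 without control 1, and 2 (without ICI-myocarditis 3) to 6 (without control 2) with 1 library left out. A filter of 50 normalized counts gave 3, beside 2095 of 13206 genes. That filter gives no value for Cxcl13, Cxcr5 and Lta, so the missing calls are those of Cxcl13 and Lta, and Cxcl12, Ccr7 and Ltb kept theirs. Cxcl12 lost its call with library size scaling (-1.35). With 1 library left out, log2 fold changes ranged from 3.38 to 4.93 for Cxcl13, -1.78 to -1.19 for Cxcl12, 2.60 to 3.79 for Ccr7 and 0.48 to 0.92 for Cxcr4. The causes were not tested.

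Signs reversed only for differences that were not called. Ltb minus T cells became -0.0044 with a pseudocount of 0.5, and it ranged from -0.16 to 0.15 with 1 library left out. Ccl19 minus fibroblasts became -0.067 with a pseudocount of 5. The Ccr9 log2 fold change became -0.044 with limma-voom and -0.13 with the replicate block, and ranged from -0.13 to 0.85 with 1 library left out. Under the same omissions Ms4a1 ranged from -0.88 to 0.064, Gpr183 from -0.054 to 0.39 and Cr2 from -1.15 to 0.15. Gpr183 was -0.054 with the replicate block.

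Replicate numbers showed no pairing in the values: the correlations of same-numbered libraries were -0.271, -0.206 and -0.0784, and no library correlated best with its own number. The labels do not say whether the numbers pair samples, and these correlations cannot settle it. With the replicate number as a block, which leaves control 4 without a partner, 1780 genes and 5 members were called, with log2 fold changes of 4.46 for Cxcl13, -1.73 for Cxcl12, 2.60 for Ccr7, 3.40 for Lta and 3.95 for Ltb. Genes at a few reads, Ccl19 above all, are limited by depth.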

Other observations

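The genes given here were chosen after their values were seen and form no tested group. Il7, the gene of a T cell survival cytokine made by lymphoid stroma, rose from 29.3 ± 7.28 to 95.1 ± 5.40 normalized counts (SD, n = 4 and 3, log2 fold change 1.69, limma adjusted p = 0.00872), and the call held in all 18 alternatives. Its receptor gene Il7r rose by 3.83. Tnfrsf11a, which encodes the RANKL receptor RANK, rose by 1.75 (limma adjusted p = 0.0118), beside its ligand gene Tnfsf11, whose control and affected means were 1.52 ± 1.20 and 32.8 ± 8.98 normalized counts. Fut7, needed to make selectin ligands, rose by 3.90 (limma adjusted p = 0.0100) and missed the threshold without ICI-myocarditis 3 (0.0548). Like Tnfsf11, Fut7 reached the filter through the affected hearts alone. Icam1 rose by 1.86 (limma adjusted p = 0.0209), called in 14 of 18 alternatives. Ccbp2, now Ackr2, a scavenger of inflammatory chemokines, rose by 1.64 (limma adjusted p = 0.0150), called in 16 of 18 alternatives.

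Ch25h lay at 9.07, 37.0, 36.8 and 3.75 normalized counts in controls 1 to 4 and at 239, 580 and 906 in ICI-myocarditis 1 to 3, with no overlap. Gpr183, the receptor gene for the oxysterol made from its product, lay at 105 ± 43.5 and 113 ± 22.6 (SD, n = 4 and 3, log2 fold change 0.19, limma adjusted p = 0.787), with overlap, and its sign changed between alternatives.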
